A study of Homo sapiens with 8 samples.

Results

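The data described here compared a pair of human osteosarcoma cell lines, 143B and HOS, by acRIP, an immunoprecipitation of RNA carrying N4-acetylcytidine (ac4C) followed by sequencing. Both libraries were the NC control cells of a study that also made sgNAT10 cells of each line, and poly(A) RNA was the labelled material. The members were all 31395 regions called as peaks in the series, and they were found in both deposited count tables under the same peak names. Each line was represented by 1 NC library, out of 4 acRIP libraries counted over these peaks and 8 samples labelled in the series. With 1 library a side there was no test, and the difference between the lines cannot be told apart from the difference between 2 libraries. Values of the sgNAT10 libraries, called the knockout pair below, were given beside those of the NC libraries, called the control pair. The pairs shared no library.

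143B is a tumorigenic line derived from HOS by oncogenic transformation and selected for loss of thymidine kinase, so the lines share one donor genome and differ by that transformation and by long separate culture. The labels gave no clone, passage or guide. ac4C is an acetyl group on cytidine, found in ribosomal RNA and transfer RNA and reported in messenger RNA, and NAT10 is the enzyme known to write it. An acRIP count depends both on how much of a transcript a cell holds and on how much of it the antibody retains, and no input library was used here, so the 2 cannot be told apart in any value below.

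The sequences of 4 peaks in promoter windows are shown first, because these are the regions for which a reference sequence could be set beside the count. They come from 36 peaks that covered at least 50 bases of a protein-coding promoter window and did not lie in another protein-coding gene. Each of the 36 held at least 200 counts over both NC libraries. Those shown were the lowest 2 and the highest 2 in 143B against HOS once any on chromosomes 8, 18 and Y were left out. Each is the part of the RefSeq window (GRCh38.p14, 250 bases before to 50 after the gene start) under the peak, cut at 30 bases after the start, written 5′ to 3′ on the gene strand, with capitals on each match to CCNCCNCCN on either strand, a repeat often cited for ac4C in messenger RNA.
SPRED1, chr15:38252586-38252763, plus strand: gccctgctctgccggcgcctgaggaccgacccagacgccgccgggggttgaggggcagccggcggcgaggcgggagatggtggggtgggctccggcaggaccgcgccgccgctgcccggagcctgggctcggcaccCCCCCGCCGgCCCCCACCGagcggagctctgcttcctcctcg
RPL10, chrX:154398446-154398526, plus strand: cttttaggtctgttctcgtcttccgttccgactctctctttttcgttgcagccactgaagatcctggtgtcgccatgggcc
NME8, chr7:37848347-37848409, plus strand: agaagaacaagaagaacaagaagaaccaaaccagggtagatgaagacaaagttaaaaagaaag
DISP2, chr15:40358170-40358248, plus strand: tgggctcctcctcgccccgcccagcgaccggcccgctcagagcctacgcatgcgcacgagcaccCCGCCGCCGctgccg

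The peak in the window of SPRED1, a membrane-bound inhibitor of RAS signalling, ended upstream of the annotated start and held 202 counts in 143B NC and 485 in HOS NC, and 120 and 363 in the knockout pair. Its difference, 143B minus HOS in log2 CPM (counts normalised to library size) after TMM scaling with a prior count of 1, was -1.52 (95% interval -1.77 to -1.29, exact binomial, counting error only) in the control pair and -2.05 in the knockout pair. RPL10, a protein of the large ribosomal subunit, held 639 counts in 143B NC and 1440 in HOS NC over its start, a difference of -1.43. The peak in the window of NME8, which also ended upstream of the start, held 215 counts in 143B NC and 70 in HOS NC, a difference of 1.34, and that over the start of DISP2 held 145 and 63, a difference of 0.93. Both low segments were below 0 in both pairs, RPL10 at -1.57 in the knockout pair, whereas the knockout differences of the high segments were 0.07 and -0.48. Over all 36 segments the median was -0.39 in the control pair and -2.43 in the knockout pair. Both low segments thus lay above the knockout median. The motif matched on the gene strand in the SPRED1 segment (2 matches) and in the DISP2 segment (1 match) and had no match in the other two. Over all 36 segments it matched in 19 (52.8%). Among 22199 protein-coding promoter windows of 300 bases it matched in 62.2% on either strand, and in the same bases of the window as the printed SPRED1, RPL10, NME8 and DISP2 segments it matched in 43.3%, 30.2%, 16.2% and 29.1% of windows. Matches therefore occurred in both a low and a high segment.

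The NC libraries held 20107718 counts (143B) and 24785306 counts (HOS) over the peaks, with a median of 19 and 14 counts a peak and 1232 and 3007 peaks at 0. One block of ribosomal RNA peaks took 42.6% of the 143B NC counts and 60.3% of the HOS NC counts, which left 11541730 and 9845009 counts for all other peaks. The TMM factors were 1.22 and 0.822, and the Spearman correlation of the 2 libraries over peaks was 0.865. The 143B sgNAT10 library stood apart, with Spearman correlations of 0.583 to 0.718 with the other libraries, so the knockout values below rest on a pair with an unlike member. Markers fitted a mesenchymal cell in part: 4 of 10 mesenchymal markers had a peak, led by VIM (vimentin) with 9700 counts in 143B NC and 16614 in HOS NC, and their summed level was 422 against 892 CPM. COL1A1, COL1A2, FN1, SPP1, IBSP and BGLAP had no peak in the tables. Markers of blood cells summed to 12 and 4 counts and those of endothelium to 40 and 37, while 4 of 7 epithelial markers had a peak: KRT8 (283 and 675 counts) and KRT18 (964 and 1511 counts) were lower in 143B NC, and CDH1 (30 and 5 counts) and GRHL2 (51 and 17 counts) were higher. The single NAT10 peak held 65 counts in 143B NC, 180 in HOS NC, 130 in 143B sgNAT10 and 63 in HOS sgNAT10. A peak near the end of a transcript does not show whether a guide cut the gene.

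With TMM scaling, peaks in protein-coding genes stood lower in 143B NC than in HOS NC by their median, while peaks outside genes stood higher. Of 23138 peaks with at least 10 counts in 1 NC library, 4283 (18.5%) were at least 2-fold higher in 143B and 4511 (19.5%) at least 2-fold lower, with a median difference of 0.04. The 12591 of these in a single protein-coding gene had a median of -0.43 (knockout pair -0.51), with 27.6% lower and 10.4% higher. Library totals alone add 0.56 to every control difference, so this control median lies above 0 under them. The 7534 peaks outside annotated genes had a median of 0.61 (knockout pair 0.18), with 7.88% lower and 29.4% higher. This skew in calls depended on depth. With a total of at least 100 counts and without chromosome Y, 1466 peaks lay outside genes. Of these, 16 were at least 8-fold higher, 133 were 2-fold to 8-fold higher and 182 at least 2-fold lower, the ribosomal RNA block not being set apart. The 433 wide peaks outside genes (over 1000 bp) had a median of 0.64, with 38 higher and 5 lower. Peaks in long noncoding RNA genes also had a median above 0, at 0.48 over 1994 peaks, and those in pseudogenes had a median of 0.28 over 352. All 60 ribosomal RNA peaks lay below 0, 49 of them at least 2-fold lower, at a median of -1.07 (knockout pair -0.70).

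The share of all counts needs no scaling between libraries, but it moves with the ribosomal RNA block, which took 42.6% in 143B NC and 60.3% in HOS NC. By this share peaks outside genes differed more than peaks in protein-coding genes. Peaks outside genes and wider than 1000 bp, 433 in number, took 20.5% of the counts in 143B NC and 9.85% in HOS NC, and narrower ones took 22.3% and 15.4%. Protein-coding peaks took nearly equal shares of all counts, 10.8% and 10.4%. Set against the counts outside the ribosomal RNA block their share was lower in 143B NC. They held 2162201 of 11541730 such counts in 143B NC and 2587158 of 9845009 in HOS NC. Peaks in long noncoding RNA genes took 1.27% and 1.49%, a lower share in 143B NC although their median difference was above 0. Depth per peak also went with the difference, though not in one direction: the median was 0.29 for peaks with a mean count from 10 to 20, -0.36 from 50 to 100, -0.60 from 100 to 500 and 0.19 at 500 or more. Below a mean count of 10 the median was 1.15. Such peaks passed the filter only with at least 10 counts in 1 NC library and fewer in the other. Their differences are therefore large by selection. What part depth had in the gene results was not tested.

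Summed by gene, 6766 protein-coding genes had a peak and 6211 passed the count filter. Of these, 493 (7.94%) were at least 2-fold higher in 143B NC and 1794 (28.9%) at least 2-fold lower, at a median of -0.49. Among the 3667 genes with a mean count of at least 50, called well-counted below, 103 (2.81%) were higher and 1261 (34.4%) lower, and the median was -0.71 (quartiles -1.16 and -0.01; knockout pair -0.41). Scaling set this centre: it moved to -0.42 with upper quartile factors and to -0.15 with library totals alone. These add 0.29 and 0.56 to every control difference, so a control value between 0 and -0.56 changes sign under the latter. To every knockout difference they add 0.70 and 0.38, and the knockout centre moves from -0.41 to 0.28 and -0.03. The sign of a knockout value near 0 thus also depends on scaling. Each gene group below is therefore read against -0.71 rather than against 0. Counts of members past 2-fold are likewise read against the 28.9% lower and 7.94% higher of all gene sums. Among well-counted genes these shares were 34.4% and 2.81%.

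**Figure D1:**
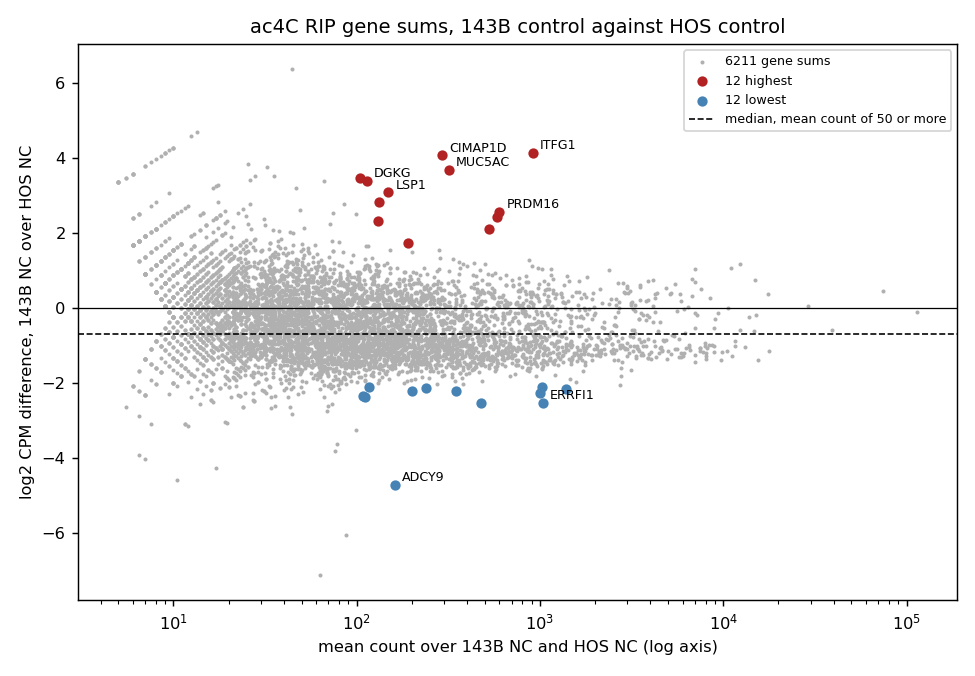
Difference between 143B NC and HOS NC (log2 CPM, vertical axis) against the mean count of the 2 libraries (log axis) for 6211 protein-coding gene sums, 1 point a gene. Most points lie below 0, around the dashed median of -0.71 for genes with a mean count of at least 50; the 12 highest (red) and 12 lowest (blue) genes with a total of at least 200 counts include ITFG1 at 4.13 and ADCY9 at -4.73.

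The gene lists were chosen with earlier results of these data known, so a rank among them is a description only. Genes of the amino acid stress response stood lowest of the 35 lists with at least 5 measured members. This response, driven by the transcription factor ATF4 when amino acids run short or the endoplasmic reticulum is stressed, induces amino acid transporters, enzymes that make serine, asparagine and proline, and transfer RNA synthetases. Of 26 genes on the list 16 were measured, all 16 lay below 0 and 14 (87.5%, against 28.9% of all gene sums) were at least 2-fold lower in 143B NC, at a median of -1.79. The knockout pair gave a median of -1.50 with 12 at least 2-fold lower, and 10 were at least 2-fold lower in both pairs. All 16 were well-counted. Of the 3667 well-counted genes, 34.4% were at least 2-fold lower in the control pair, 33.5% in the knockout pair and 338 genes in both. Measured from the centre of well-counted genes, the list's median was -1.08.

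SLC7A11 (chr4:138164097-138242349), the cystine importer that feeds glutathione synthesis, held 13 counts in 143B NC, 144 in HOS NC, 54 in 143B sgNAT10 and 131 in HOS sgNAT10. Its difference was -3.63 (95% interval -4.68 to -2.91), and -1.72 in the knockout pair. SLC3A2, the heavy chain that SLC7A11 and SLC7A5 both need to reach the membrane, held 228 counts in 143B NC and 741 in HOS NC (125 and 538 in the knockout pair), a difference of -1.96 and -2.56. SLC7A5, the light chain for large neutral amino acids, lay closer to the centre at -0.90 (378 and 587 counts). Both 143B libraries were thus below both HOS libraries for SLC7A11 and SLC3A2.

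ASNS, asparagine synthetase, held 40 counts in 143B NC and 175 in HOS NC, a difference of -2.36 (95% interval -2.93 to -1.89), and 144 and 468 in the knockout pair, a difference of -2.16. ATF4 itself (chr22:39520559-39522686), named here after its values were seen, held 624 and 1801 counts in the control pair and 388 and 1436 in the knockout pair, differences of -1.79 and -2.35. CEBPB, a leucine zipper factor that partners ATF4, followed with 161 and 522 counts (-1.95), and 198 and 693 (-2.27). Enzymes of serine synthesis were less far apart in the control pair: PHGDH held 1051 and 2212 counts (-1.34) and PSAT1 held 1799 and 3221 (-1.10). In the knockout pair PSAT1 held 761 and 6036 counts, a difference of -3.45. GPT2, which makes alanine, was the least different of the 16 in the control pair, with 2148 and 2788 counts (-0.64), yet held 331 and 8918 counts in the knockout pair (-5.21). GOT1 and GOT2, which make aspartate, lay at -1.78 and -1.55 in the control pair and just above 0 in the knockout pair, at 0.05 and 0.38.

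**Figure D2:**
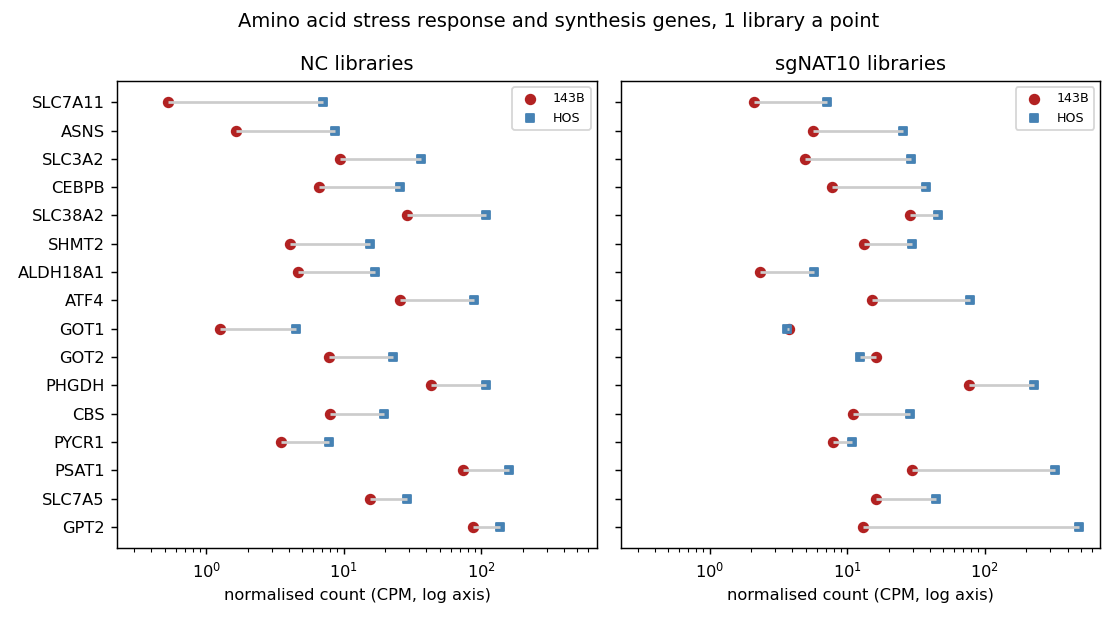
Normalised counts (CPM with the TMM total of each pair, log axis) of the 16 measured genes of the amino acid stress response and synthesis list in the NC libraries (left) and sgNAT10 libraries (right); 1 point is 1 library, red for 143B and blue squares for HOS, and the grey line joins the pair. All 16 lie lower in 143B NC than in HOS NC, from -0.64 for GPT2 to -3.63 for SLC7A11, and 14 of 16 lie lower in the knockout pair, GOT1 and GOT2 being the exceptions.

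The aminoacyl-tRNA synthetases, which charge transfer RNAs with amino acids and many of which ATF4 also induces, lay at a median of -1.34 over 17 of 23 measured, with 12 (70.6%, against 28.9% of all gene sums) at least 2-fold lower. MARS1, the methionine enzyme, held 154 counts in 143B NC and 447 in HOS NC, a difference of -1.79, and 123 and 410 in the knockout pair, a difference of -2.19. YARS1 (tyrosine) lay at -1.63 and -1.57. RARS1 (arginine) and CARS1 (cysteine) were the members nearest to 0, at -0.77 and -0.56. RARS1 turned to 1.70 in the knockout pair, so the list did not move as one there. SHMT2 and MTHFD2, mitochondrial enzymes of one-carbon metabolism, were low in both pairs: SHMT2 at -1.91 and -1.17 and MTHFD2 at -1.69 and -1.12. SLC1A5, a glutamine transporter and among the 12 lowest genes by the naming rule, held 392 counts in 143B NC, 1596 in HOS NC, 377 in 143B sgNAT10 and 647 in HOS sgNAT10, differences of -2.29 and -1.24.

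The hypoxia list holds targets of the HIF factors that cells raise when oxygen is short, and also the factors HIF1A and EPAS1 themselves. In the control pair 6 of 10 measured members (60%, against 28.9% of all gene sums) were at least 2-fold lower. EGLN3, named after its values were seen (31 and 6 counts, 1.95), was higher. The median was -1.05 in the control pair and -1.85 in the knockout pair. At least 2-fold lower in both pairs were 5 members, HIF1A and EPAS1 among them, against 429 of 6211 gene sums. DDIT4, an inhibitor of mTORC1 that both HIF and ATF4 are known to induce, held 21 counts in 143B NC, 177 in HOS NC, 29 in 143B sgNAT10 and 833 in HOS sgNAT10. Its differences were -3.27 (95% interval -4.07 to -2.68) and -5.25, so both HOS libraries were several times above both 143B libraries. VEGFA, the angiogenic growth factor, held 171 and 381 counts in the control pair (-1.41) and 132 and 981 in the knockout pair (-3.35). BNIP3L, a receptor for removal of mitochondria, lay at -1.62 and -2.06. Glycolytic genes were lower as well, 10 of 13 (76.9%, against 28.9% of all gene sums) at least 2-fold, at a median of -1.22, but their knockout median was -0.03. PGK1 held 717 and 1680 counts in the control pair (-1.49) and 1382 and 888 in the knockout pair (0.17), and GAPDH lay at -0.71, the median of well-counted genes.

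RAS proteins relay growth factor signals to the MAPK kinases, and this pathway was examined through its core genes and its output. Of 14 core genes 7 (50%, against 28.9% of all gene sums) were at least 2-fold lower in 143B NC, at a median of -1.01 (knockout pair -0.33), near the -0.71 of all well-counted genes. MAP2K1 (MEK1) held 264 and 599 counts (-1.44) and 151 and 320 (-1.54). SPRED1 as a gene sum, which leaves out the peak upstream of its annotated start printed above, held 218 and 439 counts (-1.27) and 199 and 345 (-1.25). NF1, the RAS GTPase activator, lay at -0.98 and -2.13. PTPN11 (SHP2), the lowest of the list at -2.67, rested on 10 and 58 counts and was at 1.06 in the knockout pair. At the other end SOS2, a RAS exchange factor, lay at 0.04 with 166 and 135 counts.

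Genes known to respond to MAPK output spread widely around a median of -0.63 over 12 measured, 4 of them (33.3%, near the 28.9% of all gene sums) at least 2-fold lower. MYC held 64 counts in 143B NC and 168 in HOS NC (-1.64; knockout pair -2.28), and DUSP6, the ERK phosphatase often read as a pathway gauge, held 48 and 113 (-1.48; knockout pair 0.83). HMGA1, a chromatin protein with the highest counts of the list, held 32001 and 25974 in the control pair (0.04) and 10262 and 56842 in the knockout pair (-2.93). ERRFI1, a feedback inhibitor of the EGF receptor, was also among the 12 lowest genes by the naming rule. It held 356 counts in 143B NC, 1715 in HOS NC, 316 in 143B sgNAT10 and 986 in HOS sgNAT10. Both of its peaks were low, at -2.64 near the finish of the gene and -2.34 inside it, and the gene's difference was -2.53 (95% interval -2.70 to -2.37) in the control pair and -2.10 in the knockout pair.

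Receptor tyrosine kinases, which receive growth factor signals at the membrane, differed in both directions: 8 of 29 (27.6%, near the 28.9% of all gene sums) were at least 2-fold lower, 4 at least 2-fold higher, and the median was -0.42. DDR2, a collagen receptor, was lowest, with 15 counts in 143B NC and 69 in HOS NC (-2.38), and 9 and 138 in the knockout pair (-4.24). FGFR1 held 56 and 165 counts (-1.80) and 52 and 280 (-2.87). The high members were KDR (130 and 18 counts, 2.53), ERBB3 (40 and 10 counts, 1.65) and RET (93 and 28 counts, 1.44), and all 3 had the opposite sign in the knockout pair, where HOS sgNAT10 held 855, 1078 and 1234 counts for them. The knockout median of the list was -2.71.

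Bone and matrix lists had medians between -0.30 and -0.52 over all measured members, against -0.49 for all gene sums. Over well-counted members the medians were -0.78 (bone, 2 genes), -0.65 (collagens and glycoproteins, 14 genes) and -1.10 (proteases and inhibitors, 6 genes), against -0.71. Of 22 bone-forming genes only 7 were measured, at a median of -0.30. SPARC (osteonectin), a bone matrix glycoprotein, held 465 counts in 143B NC and 1231 in HOS NC, a difference of -1.66, but 681 and 431 in the knockout pair, a difference of 0.19. RUNX2, the master regulator of bone-forming cells, held 171 and 133 counts, a difference of 0.10 with an interval of -0.24 to 0.44 that spans 0, and 68 and 293 in the knockout pair (-2.55). Collagens and matrix glycoproteins had a median of -0.51, with 6 of 20 (30%, near the 28.9% of all gene sums) at least 2-fold lower, from TGFBI at -1.75 (381 and 1073 counts) to COL5A1 at 0.61 (1744 and 954 counts). MMP1, the interstitial collagenase, was lower at all 3 of its peaks (-1.89, -2.02 and -2.19). In sum it held 1211 counts in 143B NC, 4237 in HOS NC, 1468 in 143B sgNAT10 and 3404 in HOS sgNAT10, differences of -2.07 and -1.68; the peaks also overlap a noncoding gene. The other 10 measured proteases and inhibitors included ADAM9 at -1.70 and ADAM19 at 0.89.

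Integrins and adhesion proteins had a median of -0.89, with 9 of 20 (45%, against 28.9% of all gene sums) at least 2-fold lower. ITGA2, a collagen-binding integrin, held 38 counts in 143B NC and 121 in HOS NC (-1.90), and 29 and 105 in the knockout pair (-2.28). ITGA4 (-1.99) and CD44, the hyaluronan receptor (-1.84; 165 and 495 counts), were low in the control pair alone, with -0.26 and 0.18 in the knockout pair. NCAM1 held 1948 and 1203 counts (0.43). Among mesenchymal transcription factors 1 of 13 was at least 2-fold lower and 1 at least 2-fold higher, at a median of -0.25. TWIST2, a repressor of bone-forming differentiation and by far the most covered of them, held 19869 counts in 143B NC and 9948 in HOS NC, a difference of 0.74, against 3288 and 15233 in the knockout pair, a difference of -2.68. EBF1 was high in both pairs, with 222 and 116 counts (0.67) and 657 and 178 (1.41).

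Housekeeping lists lay somewhat below the centre of -0.71, from -0.89 for mitochondrial ribosomal proteins (16 of 47 lower, 34.0%, near the 34.4% of well-counted genes) to -1.23 for antioxidant genes. Of 78 cytosolic ribosomal protein genes measured, 62 (79.5%) were at least 2-fold lower, at a median of -1.11; RPS29, the most covered, held 34886 and 43549 counts (-0.58). Translation factors gave 26 of 34 lower (76.5%, median -1.13), chaperones 17 of 26 (65.4%, -1.11), proteasome subunits 13 of 25 (52%, -1.09), nuclear-encoded oxidative phosphorylation 35 of 62 (56.5%, -1.01) and antioxidant genes 11 of 20 (55%, -1.23). Within the last list 2 genes lay above 0: TXNRD2, a mitochondrial thioredoxin reductase, at 0.30 and SOD2, the mitochondrial superoxide dismutase, at 1.04 (1466 and 592 counts). SOD2 lay at -2.02 in the knockout pair. Genes of DNA replication and division gave 8 of 17 (47.1%) and 5 of 11 (45.5%) lower, both at a median of -0.96, and included PCNA (212 and 481 counts, -1.44) and CDK1 (40 and 63 counts, -0.90). Nucleotide synthesis gave 11 of 19 (57.9%) lower at -1.04, and RRM2, a subunit of ribonucleotide reductase, held 650 counts in 143B NC and 712 in HOS NC (-0.39; knockout pair -0.24). Replication-dependent histones, whose messages lack a poly(A) tail, had 7 of 68 genes measured, all 7 at least 2-fold lower at a median of -1.39 (knockout pair -0.32), with H3C14 at 5287 and 10828 counts (-1.30); near-identical copies make single histone genes uncertain. TK1, the gene whose activity 143B lacks, had no peak. The knockout medians of most of these lists lay near or above 0, for example -0.24 for cytosolic ribosomal proteins, 0.29 for chaperones and 0.32 for replication.

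Of 122 solute carriers 34 (27.9%, near the 28.9% of all gene sums) were lower and 14 higher, at a median of -0.19, or -0.56 over the 65 well-counted ones. Zinc finger ZNF genes had a median of -0.27 (72 measured, 18 lower and 7 higher), or -0.07 over the 33 well-counted ones, and chromatin enzymes -0.47 (42 measured, 6 lower), or -0.51 over 37. Over all measured members, the medians of 26 of 35 lists lay below that of well-counted genes, those of 9 above it, and all 35 below 0, though medians above -0.56 lie above 0 with library totals alone. A scaling shifts all lists alike, so the amino acid list was lowest under each. NAT10 itself lay at -1.72 (95% interval -2.16 to -1.32) in the control pair and at 0.57 in the knockout pair.

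**Figure D3:**
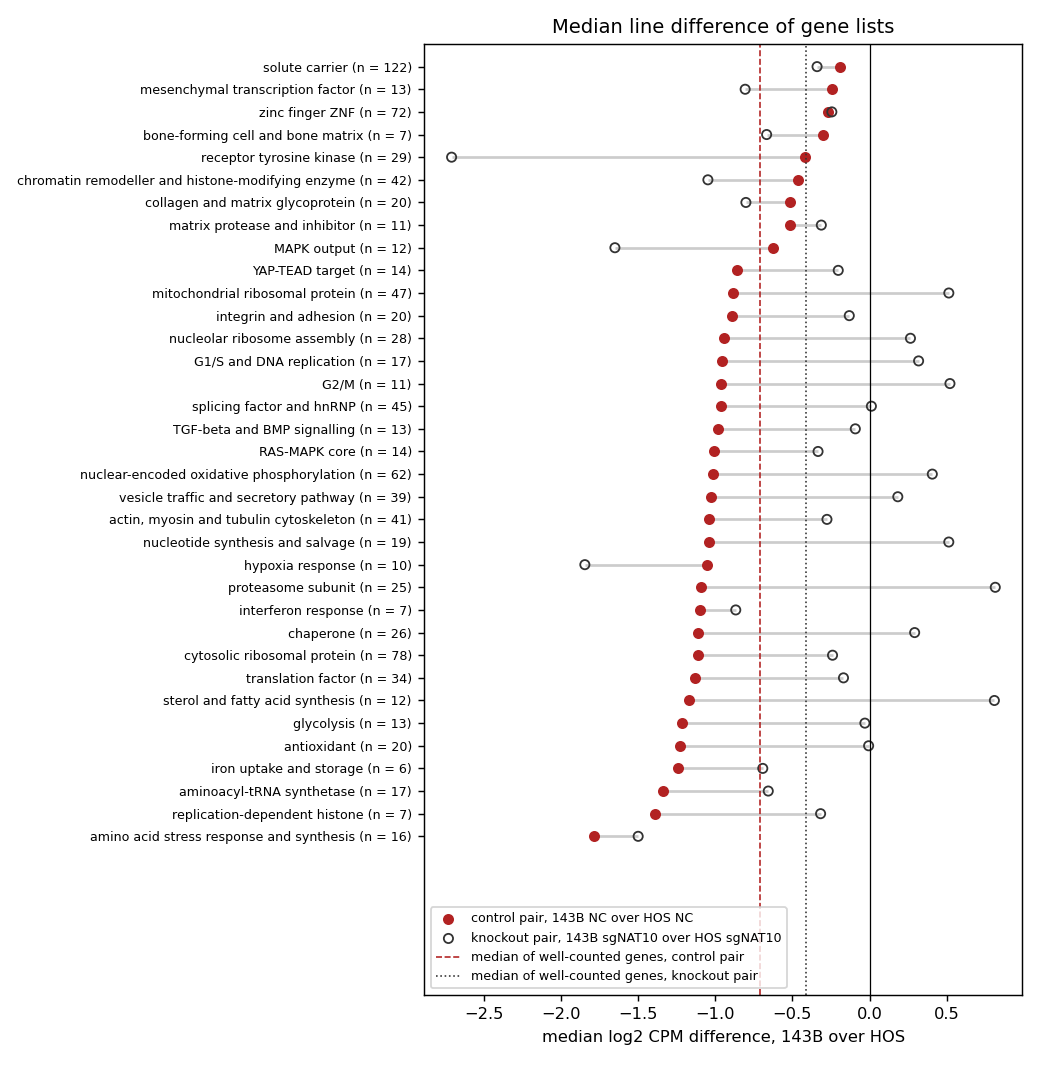
Median difference between the lines (log2 CPM, 143B over HOS) of 35 gene lists with at least 5 measured members, with the number measured after each name; filled red points are the control pair, open points the knockout pair, and the dashed and dotted lines are the medians of well-counted genes in each. The amino acid list is lowest in the control pair at -1.79 and stays low in the knockout pair at -1.50, whereas the sterol and proteasome lists pass from -1.17 and -1.09 to 0.81.

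Position in the gene went with the difference. The 782 well-counted peaks within 500 bp of the finish of a gene span, where poly(A) tails begin, had a median of -1.06; 58.1% of them, against 35.5% of the 5705 well-counted protein-coding peaks, were at least 2-fold lower and 0.13%, against 2.52%, at least 2-fold higher. The 4544 internal peaks had a median of -0.56 and the 191 peaks near a gene start -0.72. By distance the median was -1.06 within 250 bp of the finish, -0.92 from 2000 to 5000 bp, -0.76 from 5000 to 20000 bp and -0.28 beyond 20000 bp. In the knockout pair the order was the reverse: 0.51 within 250 bp of the finish and -1.32 beyond 20000 bp. Wide peaks also differed from narrow ones, at -0.92 for peaks under 150 bp, -0.13 from 300 to 1000 bp and 0.17 above 1000 bp, with -0.71, -2.07 and -3.04 in the knockout pair.

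Within genes the 2 positions lay closer together in the control pair than in the knockout pair. In 254 genes with both a finish peak and an internal peak, the finish peak was the higher of the 2 differences in 139, with a median gap of 0.03; in the knockout pair it was higher in 238, with a median gap of 1.22. How far the internal peaks lay from the finish was not taken into account.

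**Figure D4:**
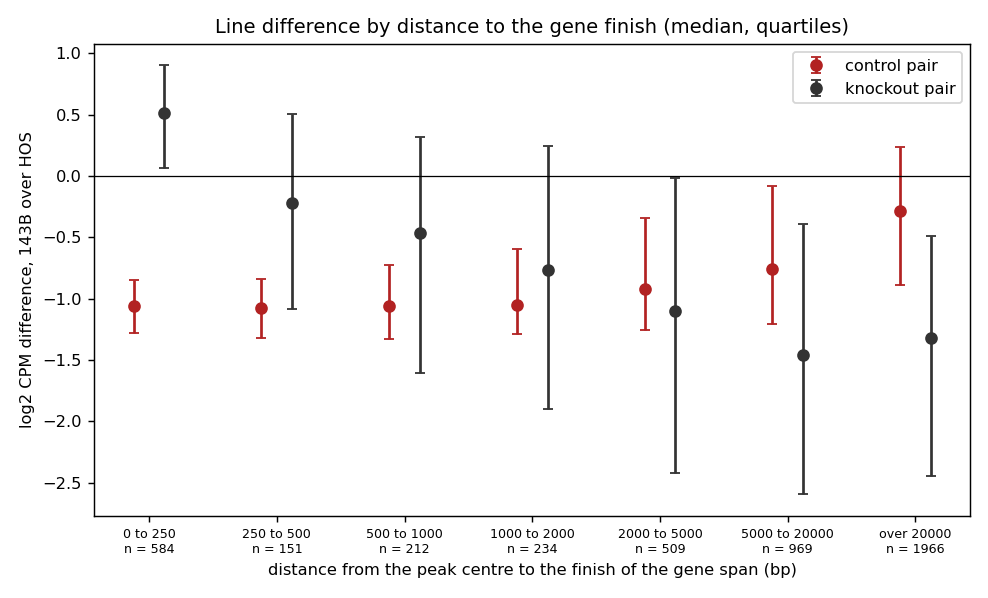
Difference between the lines (log2 CPM, 143B over HOS) of well-counted protein-coding peaks by distance from the peak centre to the finish of the gene span in bp; points are medians, bars the quartiles over peaks, red for the control pair and black for the knockout pair. The control median climbs from -1.06 beside the finish to -0.28 beyond 20000 bp, while the knockout median drops from 0.51 to -1.32.

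The most extreme differences of single genes often rested on 1 peak. ADCY9, an adenylyl cyclase, was the lowest gene by the naming rule at -4.73, from 1 internal peak of 95 bp with 13 counts in 143B NC and 310 in HOS NC, but 11 and 8 counts in the knockout pair. ZNF600, with fewer total counts than the rule asks and named as a list member, had the same pattern, with 2 and 172 counts in the control pair and 4 and 2 in the knockout pair. For both genes HOS NC stood alone among the 4 libraries. RAB9B, a small GTPase on the X chromosome (chrX:103776324-103832257) named after its values were seen, held 0 counts in both 143B libraries against 126 in HOS NC and 57 in HOS sgNAT10. Set against a floor of 3 counts a library, it was at least 50.4-fold lower in 143B in the control pair and at least 26.2-fold lower in the knockout pair, without the counting error of the HOS counts. With that error, the upper bounds of the 95% intervals were -5.34 and -4.37 on the log2 scale.

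The rest of the 12 lowest genes were lower in both pairs to a varying degree. IGF2R, the mannose 6-phosphate receptor that clears IGF2, held 41 and 181 counts (-2.37; knockout pair -1.29), and IGF2, the growth factor itself and named after its values were seen, 51 and 184 (-2.09; knockout pair -1.94). KLF6, a zinc finger transcription factor, held 81 and 317 counts (-2.22; knockout pair -1.19). GADD45A, a stress-induced gene, held 101 and 376 counts (-2.15; knockout pair -0.84). AMIGO2, APPL1, DNMBP and ACBD6 lay between -2.10 and -2.22 in the control pair and between -0.70 and -1.77 in the knockout pair.

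Of the 12 highest genes, 5 turned their sign in the knockout pair by more than 1. ITFG1 led at 4.13: its peak of 104 bp, 82044 bp from the nearer end of the span, held 1737 counts in 143B NC, 73 in HOS NC, 609 in 143B sgNAT10 and 2705 in HOS sgNAT10. DGKG, a diacylglycerol kinase, held 211 and 16 counts in the control pair (3.39) and 53 and 14339 in the knockout pair (-8.51), nearly all in 1 peak of 193 bp. For these 2 genes HOS sgNAT10 was the highest library and HOS NC the lowest. PARD3B, FHOD3 and KIF1A lay between 2.11 and 2.42 in the control pair and between -1.47 and -2.44 in the knockout pair. The others among the 12 that were high in both pairs were CIMAP1D (560 and 27 counts, 4.07; knockout pair 1.17), MUC5AC, a gel-forming mucin (599 and 38 counts, 3.68; knockout pair 1.52), CFAP74 (195 and 14 counts, 3.45; knockout pair 0.68), LSP1, an actin-binding protein of leukocytes (272 and 26 counts, 3.08; knockout pair 1.54) and PRDM16, a transcription factor of brown fat (1050 and 148 counts, 2.56; knockout pair 0.49). All 5 peaks of LSP1 were high, from 2.39 to 3.37, and the 2 highest of the 8 peaks of PRDM16 lay side by side at 3.46 and 3.82.

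Several of these high genes lie near the tips of chromosomes, and the whole table was looked at for this after their values were seen. Among 8000 peaks with at least 100 counts over both NC libraries, leaving out chromosome Y, 33 (0.412%) were at least 8-fold higher in 143B NC, and 28 of the 33 (84.8%) lay within 5 Mb of the outermost annotated gene of their chromosome, where 1656 of all 8000 (20.7%) did. Within 2 Mb lay 16 of the 33 (48.5%) and 956 of all 8000. Peaks 2-fold to 8-fold higher were near an end in 24.6%, those within 2-fold in 23.1% and those at least 2-fold lower in 14.1%, so the excess was seen at the top of the range. The 33 peaks spread over 14 chromosomes, 16 of them outside annotated genes and 14 in protein-coding genes, and their median width was 679 bp against 198 bp for all. They were not spread evenly, as several were neighbours within chr1:1967899-3177227 and several within chr11:1124383-1862081. Neighbouring peaks were counted singly in these shares.

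The highest of these regions, chr9:136579661-136582353 in GRCh38 as the table gives it, lay outside annotated genes and held 2995 counts in 143B NC, 33 in HOS NC, 372 in 143B sgNAT10 and 77 in HOS sgNAT10, differences of 6.20 and 1.80. Next among those near an end were chr11:1201402-1202121, with 984 and 20 counts (5.30; knockout pair 2.16), in the stretch that follows MUC5AC, and chr7:442675-443791, with 1283 and 33 counts (4.98; knockout pair 1.51). For all 3 regions both 143B libraries were above both HOS libraries. Of the 28 regions near an end 27 were above 0 in the knockout pair too, and of the 5 farther away, which include the ITFG1 and DGKG peaks, 1 was; of all 8000 peaks 29.4% were. Over all 33 the knockout median was 1.61 and 26 were at least 2-fold higher, against 6.66% of all. No genome was used here, so the sequence of these regions is not shown.

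**Figure D5:**
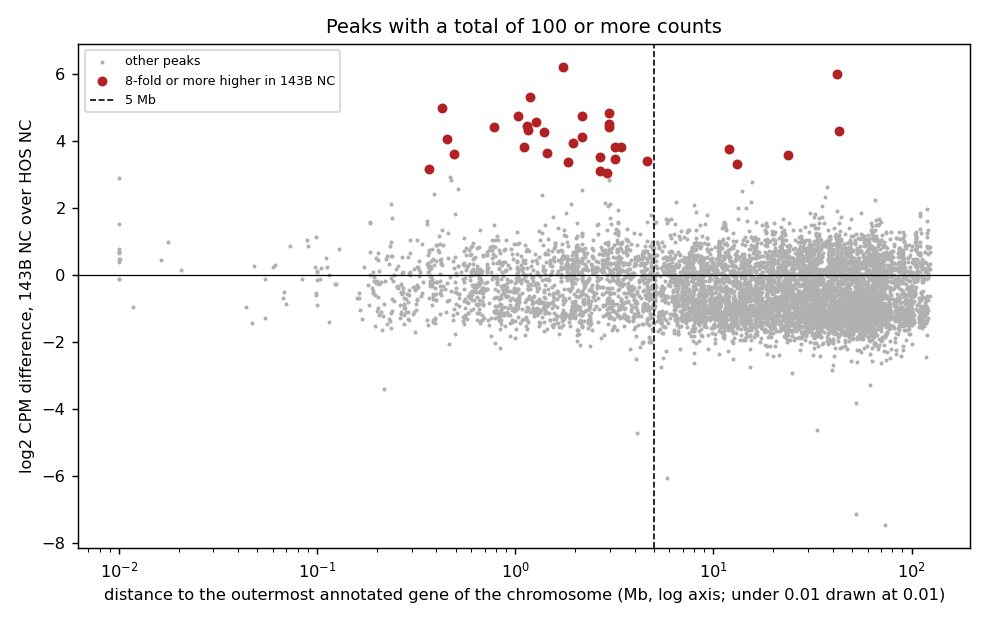
Difference between 143B NC and HOS NC (log2 CPM) of 8000 peaks with a total of at least 100 counts, against the distance of the peak to the outermost annotated gene of its chromosome (Mb, log axis); red points are the 33 peaks at least 8-fold higher in 143B NC. All but 5 of the red points lie left of the dashed line at 5 Mb, where 20.7% of all peaks lie.

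Peaks of one gene did not always differ alike. In TAFA5 (6 peaks with enough counts), whose differences had the largest SD within a gene at 1.74, one peak of 364 bp held 101 counts in 143B NC and 4 in HOS NC (4.12) while the widest, of 3752 bp, held 388 and 402 (-0.31). In ANO2, a calcium-activated chloride channel (SD 1.52 over 4 peaks), the peak of 199 bp held 47 and 132 counts (-1.73) and that of 1117 bp held 184 and 49 (1.63). The sum of a gene therefore hides opposite peaks in such cases. RANBP2, next in this order, has near-identical copies nearby and its peaks are uncertain.

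By chromosome the well-counted genes differed little from the common median. The largest departures from it were 0.40 for chromosome 13 (56 genes), 0.30 for chromosome 4 (133 genes) and 0.29 for chromosome 18 (57 genes), and -0.19 for chromosome 20 (147 genes). Among long noncoding RNAs fixed for the comparison, NEAT1, the scaffold of paraspeckles, held 621 counts in 143B NC and 997 in HOS NC (-0.94; knockout pair -1.41), NORAD held 662 and 641 (-0.22; knockout pair -0.41) and SNHG1 held 113 and 190 (-1.01; knockout pair 0.48).

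The 2 pairs of lines gave different pictures over all genes. Of the 1794 genes at least 2-fold lower in the control pair, 429 (23.9%) were also at least 2-fold lower in the knockout pair, where 25.9% of all genes were, and the 429 made up 26.6% of the 1611 knockout calls. Of the 493 higher genes 121 (24.5%) were also higher in the knockout pair, where 11.9% of all genes were, and 83 were at least 2-fold lower. Across 6211 gene sums the Spearman correlation of the 2 differences was 0.00, over 3667 well-counted genes it was -0.15 and over 23138 peaks 0.27; genes and peaks share libraries, depth and base composition within each pair.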

How the data were processed

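Per the labels, 143B and HOS cells (genotype NC or sgNAT10) gave 1 acRIP library each. The authors deposited whole-number counts per peak in 2 tables with shared peak names and GRCh38 intervals; whether starts count from 0 or 1, the peak caller, the counting tool, strand and multimapped reads are not given in the sources used here. The submitters' processing notes name FastQC, STAR, SAMtools and deepTools. The column names do not state the assay; it was taken from the tables' naming. The counts were scaled with TMM (edgeR 4.0.16, R 4.3.3) within each pair, and differences are log2 CPM with a prior count of 1. Peaks and gene sums with at least 10 counts in 1 NC library were kept, and a fold of 2 was the call. Each peak went to the single protein-coding gene whose RefSeq span it overlapped (15337 of 31395 peaks); strand was matched for 5489 of 6766 genes. Exact binomial 95% intervals cover counting error only. Named genes were the 12 highest and 12 lowest with a total of at least 200 counts, and the 3 highest and 3 lowest of each list with at least 50. Members and lists were chosen with earlier results of these data known. Upper quartile, library total and DESeq2 1.42.0 scaling, prior count, count filter and peak choice were varied, and the code was tested on simulated data.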

Additional observations from a re-analysis of the deposited data

Results flagged for a closer look

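Some differences had opposite signs in the control and knockout pairs of lines, and none of these contrasts between pairs was tested. Among the 12 highest genes of the control pair, 5 were at least 2-fold lower in 143B in the knockout pair, with knockout differences of -2.57 for ITFG1, -8.51 for DGKG, -1.84 for PARD3B, -2.44 for FHOD3 and -1.47 for KIF1A. These are gene sums, and the highest KIF1A peak stayed above 0 in the knockout pair. Lists with a median below 0 in the control pair had knockout medians of 0.51 (nucleotide synthesis and salvage), 0.52 (G2/M genes), 0.81 (sterol and fatty acid synthesis), 0.51 (mitochondrial ribosomal proteins) and 0.81 (proteasome subunits). Peaks near the finish of genes passed from -1.06 to 0.39. The 143B sgNAT10 library, which stood apart from the others, enters every one of these knockout values, and its part in them was not tested.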

How the results depend on the processing

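DESeq2 size factors, TMM without the ribosomal RNA block, a prior count of 5 and the highest peak of each gene kept the counts of calls within 1.5 times. With upper quartile factors 2644 peaks were lower, 771 genes higher and 981 lower; with library totals alone 8163 peaks were higher and 1378 lower, and 1142 genes higher and 418 lower. Without a count filter 6982 peaks were higher; with a mean count of at least 50, 360 peaks were higher and 2418 lower, and 103 genes higher. With only peaks near an end of a gene 45 genes were higher and 777 lower. Centred on well-counted genes, an alternative chosen after seeing the data, 1456 were higher and 259 lower. Of 139 named differences past 2-fold, 2 turned: KIF1A with peaks under 300 bp (-1.66) and SOX11 with peaks near an end (0.75). No median of the 18 lists past 2-fold turned. Upper quartile factors, library totals and centring each shift every control difference by less than 2-fold. Under these settings no value past 2-fold could turn. They did change sizes, as all 35 list medians moved by more than 0.2 under each. No paired analysis was possible because each group held 1 library. Depth limits the rest: peaks with under 10 counts in both NC libraries were not compared.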
